A study of Rattus norvegicus with 12 samples.

Results

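The circadian clock genes examined here were *Bmal1* (the older *Arntl*), *Clock*, *Per1*, *Per2*, *Per3*, *Cry1*, *Cry2*, *Nr1d1*, *Nr1d2* and *Dbp*, taken by name as core parts and a direct output of the clock. Of these 10 genes, 9 had a row among the 16511 genes of the count table, and *Nr1d2* was not analysed here. A filter on low counts kept 9382 genes, among them 8 of the clock genes, and *Clock* was below it.

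The clock is a feedback loop of transcription that runs in nearly every cell. BMAL1 and CLOCK form a dimer that binds E-box elements and switches on the *Per* and *Cry* genes, whose proteins return to the nucleus and repress that dimer. The same dimer switches on *Nr1d1* and *Nr1d2*, which encode the REV-ERB receptors that repress *Bmal1*, and *Dbp*, which encodes a transcription factor that binds D-box elements. Transcripts of these genes rise and fall over the day, with those of *Bmal1* roughly opposite in phase to those of *Nr1d1* and *Dbp*, in adipose tissue and mammary gland as in most organs. The hour at which each gland was collected is not given in the sources used here, so time of day could not be entered in any comparison.

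Whole snap-frozen mammary glands of female Sprague-Dawley rats were sequenced at postnatal day 21 (PND21), 6 from daughters of dams fed high fat butter (HFB) and 6 from daughters of dams fed the AIN control diet (CTL). According to the study's methods the dams received the diets through mating and gestation and the offspring of both groups the control diet, while the deposited design text gives a window that runs past birth. The study's methods describe sequencing of laser-captured epithelium from the butter diet with and without bisphenol A, while the sample labels give whole glands of HFB and CTL and name no bisphenol A, and the labels were followed. For the glands sequenced, the study's methods give 1 offspring per litter, which was taken to hold for these libraries too. Libraries are named by diet and library number, HFB 1 to 6 and CTL 7 to 11 and 14.

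Total counts lay between 2320267 and 2760871 in the HFB libraries and between 2403464 and 2944680 in the CTL libraries. Values are given as CPM, counts scaled to library size by the TMM method. A gene was taken as detectable from 3 counts, which is between 1.02 and 1.29 CPM when computed on total counts without TMM scaling, a limit that covers counting error only. Clock genes with few counts are therefore measured less precisely than *Dbp*, *Nr1d1* and *Per1*. The glands held the markers of the tissue's main parts. All 8 adipocyte markers were detected in every library, with *Fabp4* the most abundant, as were the 7 epithelial markers in the table. *Krt5* was not analysed here. Since whole glands were used, fewer cells of a type and less RNA per cell cannot be told apart.

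Libraries HFB 5, HFB 6 and CTL 14 stood apart from the other 9 in the measure that follows, and CTL 11 in its ribosomal RNA. For each library, Spearman's rho was computed between the deviation of each gene from its mean over libraries and the genomic span of the gene, over 9326 genes, and this value is called the gene span trend below. It was -0.44 in HFB 5, -0.304 in HFB 6 and -0.184 in CTL 14, so that long genes were relatively low in these glands, and between 0.0169 and 0.347 in the others. Ribosomal protein genes took 5.96%, 8.60% and 7.54% of their counts, against 3.65% to 5.01% in the others. HFB 6 and CTL 14 also had the lowest adipocyte and the highest lymphoid marker levels. Counts of 3 ribosomal RNA genes made up 7.26% of the total in CTL 11, 6.63% in HFB 6 and 3.43% in CTL 14, and 0.48% to 1.38% in the others, HFB 5 included. The fold changes of the 8 clock genes tested are given with and without HFB 5, HFB 6 and CTL 14, and those of *Bmal1*, *Nr1d1* and *Dbp* also without CTL 11. The part of RNA quality in these differences was not tested.

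Between the diets, the most distinct clock gene was *Dbp*, the D-box activator at the output of the loop, which was 1.78-fold higher with HFB. *Bmal1*, the activator at the start of the loop, was lower with HFB, at 0.654 times its CTL level. *Nr1d1* lay in the same direction as *Dbp*. The differences of *Nr1d1* and of the *Per* and *Cry* genes had 95% intervals that included 0. None of these differences passed adjustment over all genes tested. Of the 8 clock genes tested, 2 had an unadjusted p under 0.05 (edgeR quasi-likelihood test), against 220 of all 9382 genes, which is 2.34%. No clock gene had an adjusted p under 0.05 (same test with Benjamini-Hochberg adjustment), and neither had any other gene (0%). DESeq2 and limma-voom also gave 0 genes at the adjusted threshold, with 271 and 613 genes at an unadjusted p under 0.05. The HFB and CTL libraries overlapped in every clock gene, while they were fully separated in 0.107% of all genes.

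**Figure D1:**
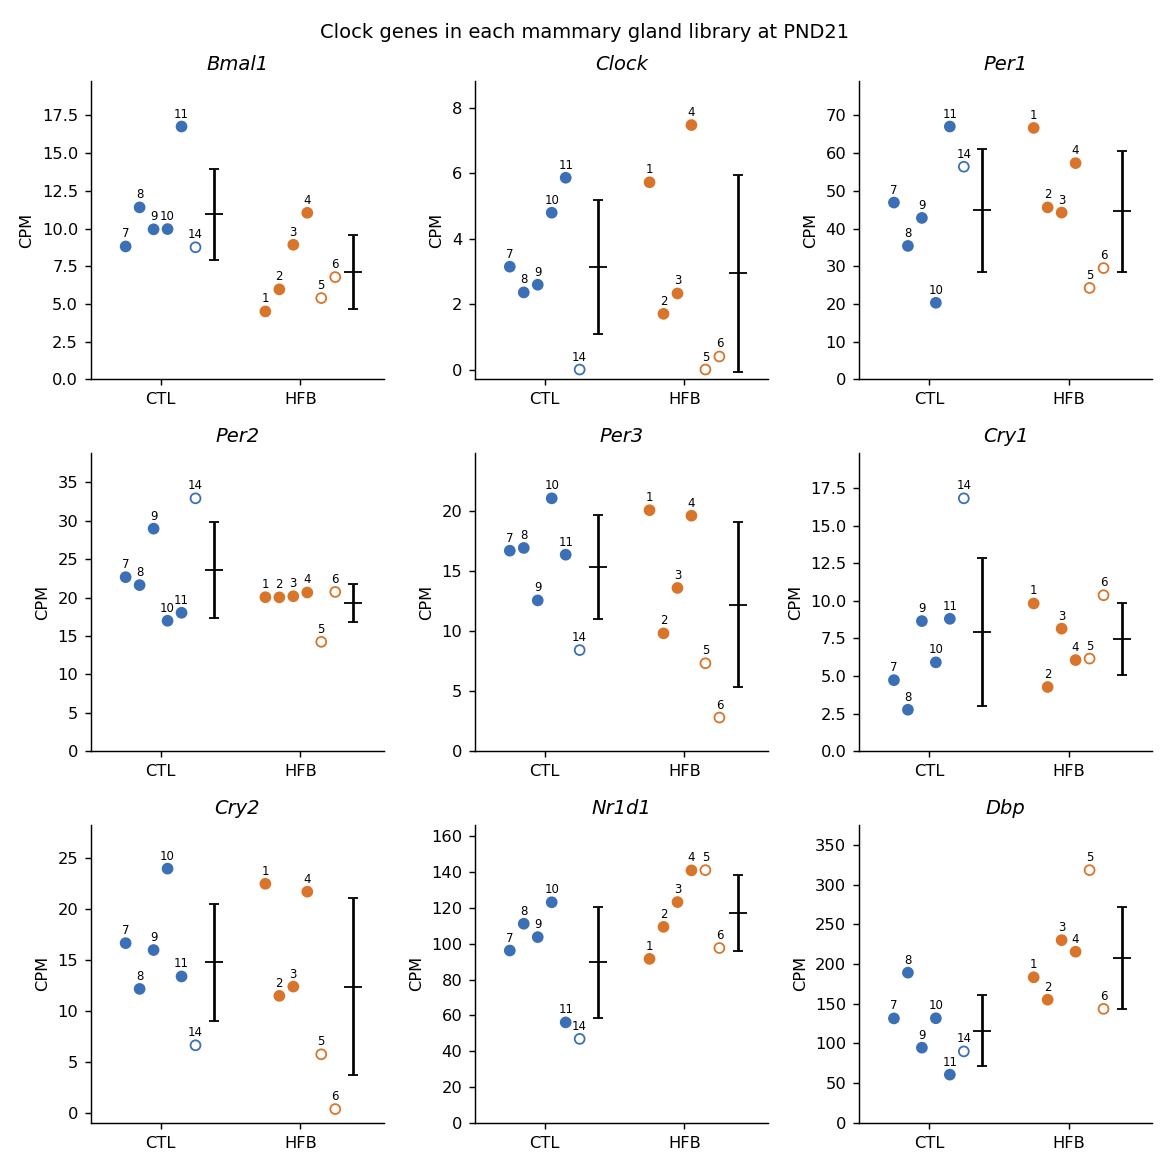
CPM of the 9 clock genes in the count table, by diet, with 1 point per library labelled with its number and the mean ± SD (n = 6) beside each group in black. Open points are HFB 5, HFB 6 and CTL 14. *Dbp* lies between 144 and 318 CPM with HFB and between 60.8 and 189 CPM in CTL, and *Bmal1* lies mostly lower with HFB.

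*Bmal1* (Entrez 29657) encodes the basic helix-loop-helix PAS protein without which the loop does not run. In the HFB libraries its lowest, median and highest values were 4.50, 6.37 and 11.04 CPM, and in the CTL libraries 8.76, 9.95 and 16.8 CPM. The groups overlapped through HFB 4 and HFB 3, and the remaining 4 HFB libraries lay below every CTL library. CTL 11 was well above the rest of its group. The means were 7.10 ± 2.45 CPM with HFB and 10.9 ± 3.01 CPM in CTL (SD, n = 6 each). Its log2 fold change was -0.61 with a standard error of 0.26 and a 95% interval from -1.18 to -0.05. This difference had an unadjusted p of 0.0355 and an adjusted p of 0.999 (edgeR quasi-likelihood test, Benjamini-Hochberg). Without CTL 11 the log2 fold change of *Bmal1* was -0.45, with an unadjusted p of 0.104. Without HFB 5, HFB 6 and CTL 14 it was -0.56, with an unadjusted p of 0.0784.

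*Clock* (Entrez 60447) encodes the partner of BMAL1 and was close to the limit of detection, with 0 to 21 counts per library and a median of 6. The HFB values were 0, 2.02 and 7.48 CPM (lowest, median, highest) and the CTL values 0, 2.87 and 5.87 CPM. The lowest counts were those of HFB 5 (0), CTL 14 (0) and HFB 6 (1), the libraries that stood apart in the gene span trend. HFB 4, with 21 counts, was the highest. The means were 2.94 ± 3.01 CPM with HFB and 3.13 ± 2.05 CPM in CTL (SD, n = 6 each). Since *Clock* was below the filter, its difference between the diets was not tested. *Npas2*, a paralog of *Clock* that can take its place, was at 6.07 ± 1.87 CPM with HFB and 7.49 ± 2.80 CPM in CTL (SD, n = 6 each). Its log2 fold change was -0.30 with a standard error of 0.29 and an unadjusted p of 0.33 (edgeR).

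The period genes encode the proteins that carry the repression back to the nucleus. *Per1* (Entrez 287422), which also responds directly to glucocorticoids and other acute signals, spanned 24.2, 44.9 and 66.7 CPM with HFB and 20.3, 44.8 and 67.1 CPM in CTL. The groups covered the same range, with CTL 10, HFB 5 and HFB 6 lowest and CTL 11 and HFB 1 highest. Its log2 fold change was -0.0062 with a standard error of 0.29, and the 95% interval of the fold change ran from 0.641 to 1.55. The sign of this value differed between settings, and it was 0.34 without HFB 5, HFB 6 and CTL 14.

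*Per2* (Entrez 63840) was steady within the HFB group. Its lowest, median and highest values were 14.2, 20.1 and 20.7 CPM with HFB and 17.0, 22.1 and 32.9 CPM in CTL. HFB 5 lay apart at the low end and the other 5 HFB libraries fell between 20.0 and 20.7 CPM, while CTL 9 and CTL 14 were above every HFB library by a wide margin. No HFB library was above the CTL median. The log2 fold change of *Per2* was -0.28 with a standard error of 0.19 and an unadjusted p of 0.16 (edgeR). Without HFB 5, HFB 6 and CTL 14 it was -0.09.

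*Per3* (Entrez 78962), the member of the family least needed for the rhythm itself, ran through 2.79, 11.7 and 20.0 CPM with HFB and 8.41, 16.5 and 21.0 CPM in CTL. The lowest library of CTL was CTL 14 and the lowest of HFB were HFB 6 and HFB 5. The diets overlapped over most of their range. Its log2 fold change was -0.33 with a standard error of 0.39 and an unadjusted p of 0.413 (edgeR). Without HFB 5, HFB 6 and CTL 14 it was -0.082, and with the gene span trend as a covariate -0.051. It was -0.22 without HFB 5, -0.12 without HFB 6, -0.45 without CTL 14 and -0.25 without HFB 6 and CTL 14 together, so CTL 14 acted on *Per3* in the other direction from HFB 5 and HFB 6.

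The cryptochromes are the stronger repressors of the BMAL1 and CLOCK dimer. *Cry1* (Entrez 299691) ran through 4.26, 7.15 and 10.4 CPM with HFB and 2.75, 7.28 and 16.8 CPM in CTL. The highest library of each diet was among those that stood apart, HFB 6 and CTL 14, and the HFB range lay within the CTL range. The log2 fold change of *Cry1* was -0.089 with a standard error of 0.39 (unadjusted p = 0.822, edgeR) and turned to 0.30 without CTL 14 and 0.21 without HFB 5, HFB 6 and CTL 14.

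*Cry2* (Entrez 170917) ran the other way across these libraries. It spanned 0.399, 11.96 and 22.5 CPM with HFB and 6.66, 14.7 and 24.0 CPM in CTL. HFB 6 held a single count (1), below the smallest detectable level, and HFB 5 and CTL 14 were the next lowest. The log2 fold change was -0.26 with a standard error of 0.55 (unadjusted p = 0.647, edgeR), and 0.052 without HFB 5, HFB 6 and CTL 14. It was -0.0040 without HFB 6, -0.51 without HFB 1 and -0.41 without CTL 14, so its size depended on single libraries. Among the 1000 genes nearest to it in level, the variation of *Cry2* between glands was at percentile 90.0, the highest of the clock genes tested. That of *Bmal1* was at percentile 26.8 and that of *Per2* at 25.3, so these were among the steadier genes of their level.

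*Nr1d1* (Entrez 252917) encodes REV-ERB alpha, the heme-binding repressor of *Bmal1*. Its lowest, median and highest values were 91.6, 116 and 141 CPM with HFB and 46.9, 100.035 and 123 CPM in CTL. CTL 11 and CTL 14 lay far below all other libraries, and the other 4 CTL libraries fell within the HFB range. The means were 117 ± 21.3 CPM with HFB and 89.6 ± 30.9 CPM in CTL (SD, n = 6 each). HFB over CTL gave a log2 fold change of 0.39 with a standard error of 0.23, a 95% interval from -0.11 to 0.89 and an unadjusted p of 0.114 (edgeR). Without HFB 5, HFB 6 and CTL 14 it was 0.25 (unadjusted p = 0.235), without CTL 14 alone 0.26 (unadjusted p = 0.197) and without CTL 11 alone 0.29 (unadjusted p = 0.23, edgeR). With the skeletal muscle and lymphoid marker scores as covariates it was 0.54, with an unadjusted p of 0.0114 (edgeR), so the size of the *Nr1d1* difference depended on the libraries and covariates used. In the GRCr8 gene table *Nr1d1* overlaps *Thra*, a gene on the opposite strand, and the use of strand in counting is not given in the sources used here, so that reads of the shared stretch cannot be told apart. *Thra* was at 149 ± 25.5 CPM with HFB and 140 ± 33.4 CPM in CTL (SD, n = 6 each), with a log2 fold change of 0.10. In 2 relations added after seeing the data, *Thra* had r = 0.627 to *Nr1d1* (permutation p = 0.0337, adjusted p = 0.0674) and rho = 0.650 (permutation p = 0.0255, adjusted p = 0.051). To *Dbp* it had r = 0.334 (permutation p = 0.288, adjusted p = 0.288) and rho = 0.399 (permutation p = 0.201, adjusted p = 0.201). Within HFB, r of *Thra* was 0.885 to *Nr1d1* and 0.800 to *Dbp*, and within CTL 0.547 and 0.0182. Without HFB 6 and CTL 14, the farthest 2, r was 0.140 to *Nr1d1* and 0.0821 to *Dbp*. Over the 9 libraries without HFB 5, HFB 6 and CTL 14, r of *Thra* to *Nr1d1* was -0.0705 (exact permutation p = 0.876, adjusted p = 0.876). The part of shared reads in the level of *Nr1d1* was not tested.

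*Dbp* (Entrez 24309) encodes a PAR bZIP activator whose transcript has among the widest daily swings of the clock. Its lowest, median and highest values were 144, 199 and 318 CPM with HFB and 60.8, 113 and 189 CPM in CTL. Every HFB library was above the CTL median, 6 of 6, and every CTL library was below the HFB median. The groups overlapped through CTL 8, which was higher than HFB 1, HFB 2 and HFB 6. The means were 208 ± 63.6 CPM with HFB and 116 ± 44.7 CPM in CTL (SD, n = 6 each). The log2 fold change was 0.84 with a standard error of 0.26, and its 95% interval ran from 0.26 to 1.41, or from 1.20-fold to 2.65-fold. This difference had an unadjusted p of 0.00742 and an adjusted p of 0.999 (edgeR quasi-likelihood test, Benjamini-Hochberg). Without HFB 5, HFB 6 and CTL 14 the log2 fold change of *Dbp* was 0.68, with an unadjusted p of 0.0193 (edgeR). Without CTL 11 it was 0.70, with an unadjusted p of 0.0144.

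Taken as a list, 2 of the 8 clock genes tested had a positive log2 fold change and 6 a negative one, with a median of -0.17. The median over all 9382 genes was 0.00021. The median size of the log2 fold change, regardless of sign, was 0.31 for the clock genes and 0.15 for all genes. The genes compared were not matched for level or for spread between glands, so these sizes are not read as particular to the clock genes. The split of signs depended on the libraries that stood apart in the gene span trend. Without these libraries, a set chosen after seeing the data, *Per1*, *Cry1* and *Cry2* turned positive, at 0.34, 0.21 and 0.052. *Bmal1*, *Per2* and *Per3* stayed negative, at -0.56, -0.094 and -0.082, and *Nr1d1* and *Dbp* stayed positive, at 0.25 and 0.68. The list is therefore not read as mostly lower with HFB. No test was made of the list.

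**Figure D2:**
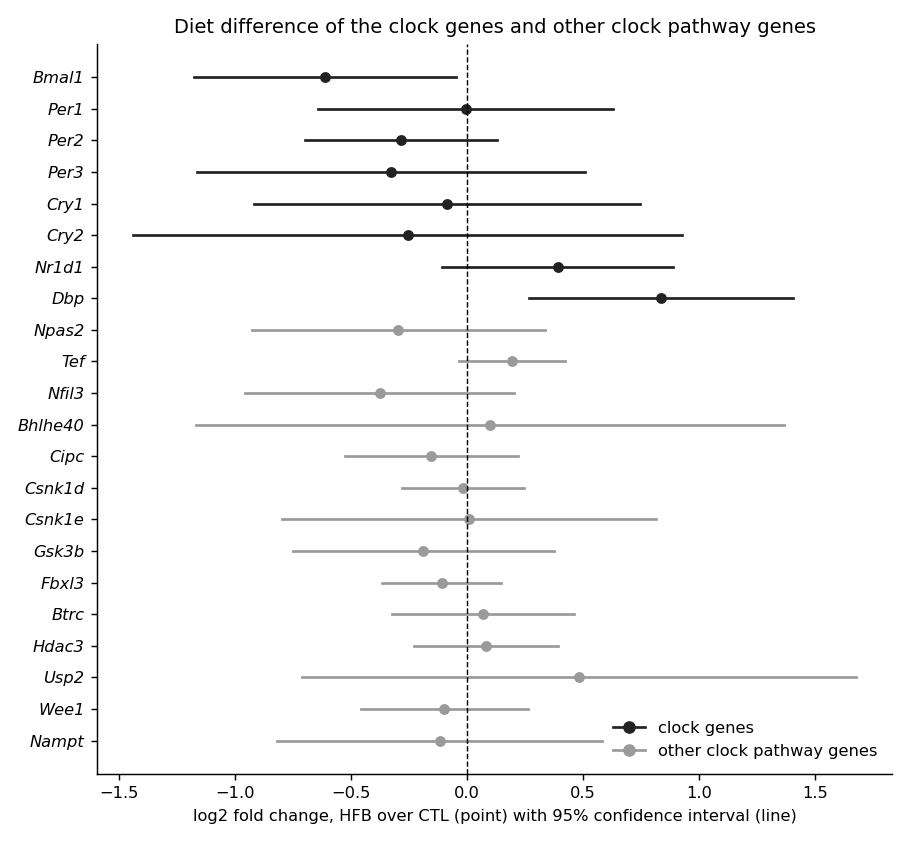
Log2 fold change of HFB over CTL with its 95% confidence interval (edgeR), for the 8 clock genes tested (black) and the 14 other clock pathway genes tested (grey). The intervals of *Bmal1* and *Dbp* lie on either side of 0 and do not include it, and the intervals of the other genes shown include 0.

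Other genes of the clock pathway were read from a list of 23, of which 17 were in the count table and 14 were tested. None of the 14 had an unadjusted p under 0.05 (edgeR), against 2.34% of all genes. Their log2 fold changes were positive in 6 and negative in 8, with a median of -0.057. *Tef*, a PAR bZIP relative of *Dbp*, was at 115 ± 14.4 CPM with HFB and 100.1 ± 4.37 CPM in CTL (SD, n = 6 each), with a log2 fold change of 0.19 and a standard error of 0.11. *Nfil3*, which represses through the D-box that DBP activates, had a log2 fold change of -0.38 with a standard error of 0.27. *Usp2*, a deubiquitinase gene driven by the clock, had 0.48 with a standard error of 0.55. For *Usp2* this value was 0.80 without HFB 5, HFB 6 and CTL 14 (unadjusted p = 0.0268) and 0.92 with the gene span trend as a covariate (unadjusted p = 0.0406, edgeR). Both settings were added after seeing the data. Without those libraries the number of all genes with an unadjusted p under 0.05 was also higher, as given below. *Usp2* had 2 to 25 counts per library with a median of 10.5. Its lowest HFB value, 0.769 CPM, was below the smallest detectable level. The kinase genes *Csnk1d* and *Csnk1e*, which mark PER proteins for degradation, had log2 fold changes of -0.016 and 0.0075. *Bhlhe40*, an E-box repressor, had 0.10 with a standard error of 0.59.

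*Ciart*, a repressor of the BMAL1 and CLOCK dimer, had a median of 5 counts, below both the filter and the limit of 10 set for naming genes of this list, and is named as an exception chosen after its values were seen. It had 4 to 11 counts in the HFB libraries and 1 to 8 in the CTL libraries. The means were 3.26 ± 1.16 CPM with HFB and 1.22 ± 0.82 CPM in CTL (SD, n = 6 each), the latter near the smallest detectable level. The groups overlapped through CTL 14, with 8 counts. When no filter was applied, *Ciart* was the only one of the other clock pathway genes with an unadjusted p under 0.05 (0.00851, edgeR), with a log2 fold change of 1.37.

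Glucocorticoids and acute stimulation act on *Per1* and on immediate early genes. Of 4 glucocorticoid response genes tested, 0 had an unadjusted p under 0.05 (edgeR), and of 10 immediate early genes 1 had, against 2.34% of all genes. This was *Dusp1*, with 161 ± 48.5 CPM in HFB and 115 ± 20.2 CPM in CTL (SD, n = 6 each). Its log2 fold change was 0.49, with an unadjusted p of 0.0326 (edgeR). *Per1* itself did not share this difference, as given above. CTL 11 had the highest *Bmal1*, the lowest *Dbp* and, by CPM, the highest *Per1* (67.1 CPM, next HFB 1, 66.7 CPM). On the log2 scale used for the correlations HFB 1 was above CTL 11 in *Per1* (6.09 and 6.06). CTL 11 was also the highest of all libraries in *Fkbp5*, at 202 CPM (next HFB 2, 133 CPM), and in *Klf9*, at 89.3 CPM (next HFB 3, 78.0 CPM). In *Tsc22d3* it was the highest CTL library, at 405 CPM (next CTL 8, 255 CPM), below HFB 2 at 459 CPM. In *Sgk1* it was at 37.3 CPM, below CTL 14 at 44.8 CPM and HFB 6 at 42.7 CPM, so CTL 11 was not highest in every gene of the list. *Zbtb16*, the remaining gene of the list, had a median of 8.5 counts and was below the filter. It was highest in CTL 11, at 13.4 CPM (next CTL 10, 7.38 CPM), and is named after its values were seen. The part of a glucocorticoid response in the clock gene values of CTL 11 was not tested.

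Promoter windows of the clock genes are shown to set their clock elements beside the levels above, for the genes with the clearest diet values and for *Per2*, which held 2 kinds of element. RefSeq windows of 250 bases before to 50 after the start site (GRCr8) were found for 9 of the 10 genes, in 11 windows. *Cry1* had none. Capitals mark matches, on either strand, to the E-box CACGTG, its variant CACGTT, the D-box TTATGNAA and the nuclear receptor site AGGTCA, and no matches overlapped.
*Bmal1* (chr1:176766078-176766377, plus strand): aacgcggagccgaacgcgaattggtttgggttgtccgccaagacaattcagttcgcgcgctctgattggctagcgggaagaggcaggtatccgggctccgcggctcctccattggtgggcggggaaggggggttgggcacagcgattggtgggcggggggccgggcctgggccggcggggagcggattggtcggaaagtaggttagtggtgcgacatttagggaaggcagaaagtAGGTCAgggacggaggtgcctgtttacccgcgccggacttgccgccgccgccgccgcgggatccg
*Per2* (chr9:99496944-99497243, minus strand): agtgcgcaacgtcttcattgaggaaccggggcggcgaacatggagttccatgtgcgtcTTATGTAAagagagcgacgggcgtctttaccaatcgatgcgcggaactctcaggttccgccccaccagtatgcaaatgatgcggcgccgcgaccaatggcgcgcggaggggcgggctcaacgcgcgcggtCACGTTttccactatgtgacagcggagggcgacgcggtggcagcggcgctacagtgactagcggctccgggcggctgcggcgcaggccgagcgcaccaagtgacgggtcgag
*Nr1d1*, first window (chr10:84231763-84232062, minus strand): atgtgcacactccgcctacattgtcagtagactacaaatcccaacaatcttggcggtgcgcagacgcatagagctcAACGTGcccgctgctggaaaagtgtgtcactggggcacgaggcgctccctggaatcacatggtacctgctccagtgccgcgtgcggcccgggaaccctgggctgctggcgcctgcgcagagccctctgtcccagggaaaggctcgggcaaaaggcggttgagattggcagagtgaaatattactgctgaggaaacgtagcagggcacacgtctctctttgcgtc
*Nr1d1*, second window (chr10:84229405-84229704, minus strand): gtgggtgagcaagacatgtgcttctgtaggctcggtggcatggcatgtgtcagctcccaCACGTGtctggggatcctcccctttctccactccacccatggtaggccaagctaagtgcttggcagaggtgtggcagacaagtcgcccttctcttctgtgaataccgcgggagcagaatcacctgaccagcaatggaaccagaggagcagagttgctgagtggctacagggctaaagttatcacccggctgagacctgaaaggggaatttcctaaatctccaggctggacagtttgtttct
*Dbp* (chr1:105312006-105312305, plus strand): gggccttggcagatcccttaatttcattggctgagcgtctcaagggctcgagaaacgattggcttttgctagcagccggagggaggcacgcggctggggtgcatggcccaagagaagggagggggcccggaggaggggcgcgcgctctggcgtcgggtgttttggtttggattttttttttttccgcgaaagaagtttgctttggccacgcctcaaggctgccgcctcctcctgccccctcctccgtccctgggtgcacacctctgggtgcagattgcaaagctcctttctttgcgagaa

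The canonical E-box was found in 1 of the clock genes, in the second window of *Nr1d1*, and in 6.42% of all 33469 windows. The variant E-box was found in 3 genes, *Per2*, *Cry2* and *Nr1d1*, and in 4.83% of all windows. The D-box was found in *Per2* alone among the clock genes and in 3.66% of all windows. The nuclear receptor site, the core of the element that REV-ERB receptors bind, was found in *Bmal1*, 15 bases before the start site, and in *Nr1d2*, and in 16.2% of all windows. The windows of *Dbp*, *Clock*, *Per1* and *Per3* held none of these letters, which says nothing of sequence outside them.

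The clock genes were then compared with each other over the 12 libraries. Among the 36 pairs of the 9 genes, 4 had a Benjamini-Hochberg adjusted p under 0.05 for Pearson's r of log2 CPM (two-sided permutation test). These fell into 2 groups that shared no gene, *Nr1d1* with *Dbp*, and *Clock*, *Per3* and *Cry2* with each other. The share of such pairs among all genes was not computed, so the count of 4 is not read as particular to the clock genes.

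*Nr1d1* and *Dbp* varied together with r = 0.805 (permutation p = 0.00123, adjusted p = 0.0148) and rho = 0.762 (permutation p = 0.00526, adjusted p = 0.0473). The relation was seen in both diets, with r = 0.792 within HFB and 0.745 within CTL. HFB 5, HFB 4 and HFB 3 were high in both genes and CTL 11 and CTL 14 low in both. Without CTL 11 and CTL 14, the libraries farthest from the median of *Nr1d1*, r was 0.654. Without HFB 5, HFB 6 and CTL 14, r was 0.808 over 9 libraries (exact permutation p = 0.0137, adjusted p = 0.221). When the farthest 2 of those 9 were also left out r was 0.299, so the relation rests in good part on the libraries at the ends of the range. To the endothelial score, *Nr1d1* and *Dbp* had r = -0.710 (permutation p = 0.0104, adjusted p = 0.109) and -0.667 (permutation p = 0.018, adjusted p = 0.162). Without HFB 5 and CTL 14, the farthest 2 in that score, these were -0.318 and -0.430. To the lymphoid score r over all 12 libraries was -0.471 (permutation p = 0.108, adjusted p = 0.329) and -0.219 (permutation p = 0.496, adjusted p = 0.762). It was -0.944 and -0.810 within HFB, and -0.552 and -0.195 within CTL. Without HFB 6 and CTL 14, the farthest 2 in the lymphoid score, r was -0.052 and 0.031. Over the 9 libraries without HFB 5, HFB 6 and CTL 14 it was 0.018 and 0.152. The part of cell content in the relation was not tested.

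*Bmal1* and *Dbp*, which lie at opposite phases of the daily cycle, had r = -0.534 (permutation p = 0.0739, adjusted p = 0.411) and rho = -0.294 (permutation p = 0.356, adjusted p = 0.718). CTL 11 had the highest *Bmal1* and the lowest *Dbp*, and r was -0.271 without it. Without HFB 5, with the highest *Dbp*, r was -0.423. Without HFB 1 and CTL 11 r was -0.251, and with the mean of each diet removed it was -0.164. It was 0.0847 within HFB and -0.415 within CTL. Other omissions made r more negative, at -0.652 without HFB 4 (permutation p = 0.0293) and -0.622 without CTL 8 (permutation p = 0.0411), and over the 9 libraries without HFB 5, HFB 6 and CTL 14 it was -0.490 (exact permutation p = 0.179, adjusted p = 0.902). The relation of *Bmal1* and *Dbp* thus varied with the libraries included and did not pass adjustment over all 12. *Bmal1* and *Nr1d1* had r = -0.269 (permutation p = 0.394, adjusted p = 0.591) and rho = 0.0909 (permutation p = 0.784, adjusted p = 0.973), and r was -0.0162 without HFB 1 and CTL 11.

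**Figure D3:**
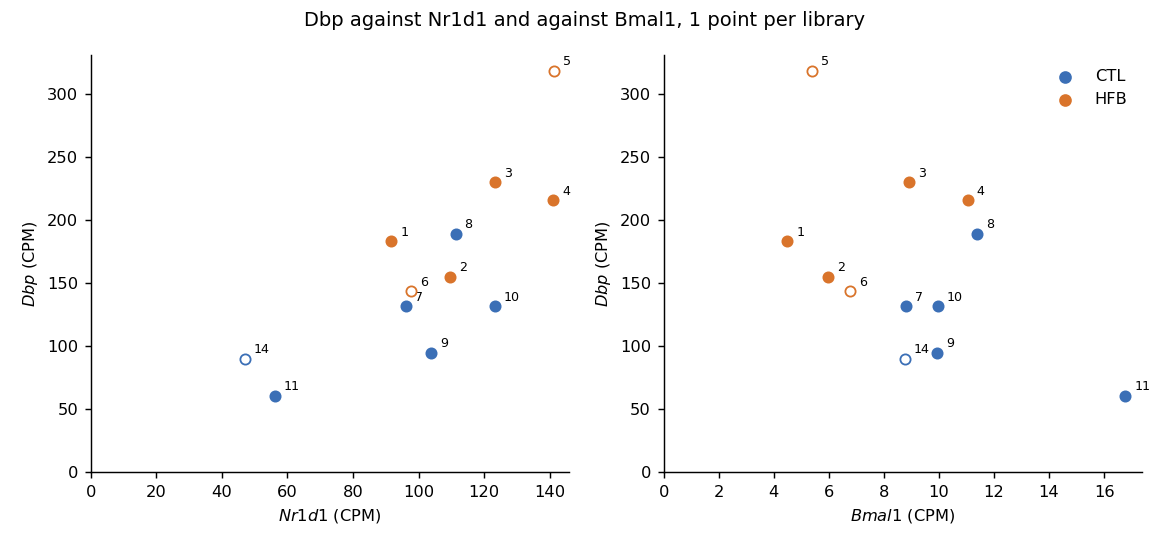
CPM of *Dbp* against CPM of *Nr1d1* (left) and *Bmal1* (right), 1 point per library labelled with its number, with HFB 5, HFB 6 and CTL 14 open. *Dbp* is higher where *Nr1d1* is higher (r = 0.805 on the log2 scale), and CTL 11 lies alone at the highest *Bmal1* and the lowest *Dbp*.

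*Per3* and *Cry2* were the most alike pair, with r = 0.964 (permutation p = 2e-05, adjusted p = 0.00072) and rho = 0.930 (permutation p = 7e-05, adjusted p = 0.00252). *Clock* followed both, with r = 0.811 to *Per3* (permutation p = 0.00108, adjusted p = 0.0148) and 0.738 to *Cry2* (permutation p = 0.00278, adjusted p = 0.025). The corresponding rho values were 0.818 and 0.860 (adjusted permutation p = 0.0234 and 0.0139). All 3 genes were low in HFB 5, HFB 6 and CTL 14 and high in HFB 1, HFB 4 and CTL 10. Without the 2 libraries farthest from the median of the first gene, r was 0.871 for *Per3* and *Cry2*, 0.886 for *Clock* and *Per3* and 0.844 for *Clock* and *Cry2*. Over the 9 libraries that did not stand apart, r was 0.760, 0.781 and 0.729 for these pairs, and none had an adjusted p under 0.05 (exact permutation test, smallest adjusted p = 0.221). *Clock* had 0 counts in HFB 5 and CTL 14, where its log2 value is set by the prior count of 2. Of the 36 pairs, 2 passed adjustment with a prior count of 0.5 and 1 without HFB 5, against 4 above.

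**Figure D4:**
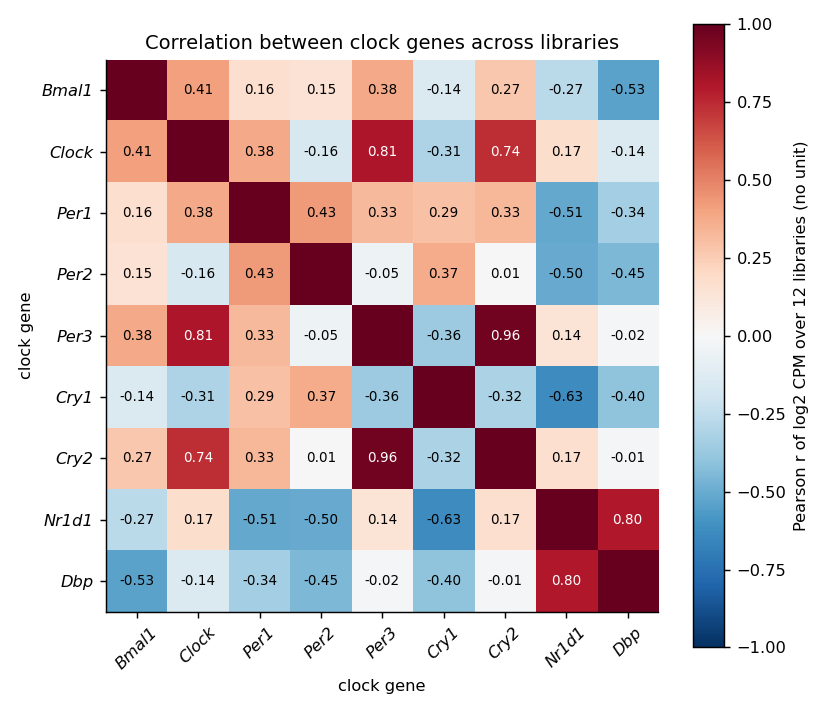
Pearson's r of log2 CPM over 12 libraries for each pair of the 9 clock genes, on a color scale from -1 to 1. *Clock*, *Per3* and *Cry2* form a block of positive values, and *Dbp* and *Nr1d1* are positive to each other (0.805) and negative to *Bmal1*, *Per1*, *Per2* and *Cry1*.

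*Clock*, *Per3* and *Cry2* were also the clock genes that followed the gene span trend. Of 63 relations of the 9 clock genes to 6 marker scores and the gene span trend, 3 had an adjusted p under 0.05 (permutation test, Benjamini-Hochberg). The trend is a property of the whole library. Of all 9382 genes tested, 46.2% had an unadjusted p under 0.05 for r to it (permutation test), 24.4% with a positive r, and of the 9 clock genes these 3 did, all with a positive r. Following the trend was thus not particular to the clock genes. *Clock* had r = 0.934 to the trend (permutation p = 5e-05, adjusted p = 0.00315) and rho = 0.909 (permutation p = 0.0001, adjusted p = 0.00472). *Per3* had r = 0.822 (permutation p = 0.00144, adjusted p = 0.0304) and rho = 0.825 (permutation p = 0.00138, adjusted p = 0.029). *Cry2* had r = 0.804 (permutation p = 0.00145, adjusted p = 0.0304) and rho = 0.909 (permutation p = 0.00015, adjusted p = 0.00472).

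Without the 2 libraries farthest from the median trend, these values of r were 0.908, 0.757 and 0.893. Over the 9 libraries that did not stand apart they were 0.784, 0.535 and 0.772 (exact permutation p = 0.0167, 0.139 and 0.0208), and none passed adjustment. A long gene did not follow the trend in every case. *Bmal1*, which spans 98.5 kb in the GRCr8 gene table, had r = 0.445 to it (permutation p = 0.148, adjusted p = 0.363), rho = 0.503 (permutation p = 0.098, adjusted p = 0.389) and r = 0.137 without the 2 farthest libraries. *Cry1*, which spans 64.3 kb, had r = -0.218 (permutation p = 0.492, adjusted p = 0.762), rho = -0.210 (permutation p = 0.512, adjusted p = 0.770) and r = -0.251 without them. *Clock*, *Per3* and *Cry2* span 84.1 kb, 37.3 kb and 29.96 kb. *Dbp*, which spans 4.95 kb, had r = -0.363 (permutation p = 0.247, adjusted p = 0.537), rho = -0.329 (permutation p = 0.299, adjusted p = 0.693) and r = -0.058 without them. *Nr1d1*, which spans 7.21 kb, had r = 0.00533 (permutation p = 0.988, adjusted p = 0.988), rho = -0.021 (permutation p = 0.957, adjusted p = 1) and r = 0.391 without them. The part of RNA quality or library preparation in these relations was not tested. With the trend as a covariate, chosen after seeing the data, the log2 fold change of *Dbp* was 0.75 (unadjusted p = 0.0177) and that of *Bmal1* -0.50 (unadjusted p = 0.0767, edgeR).

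**Figure D5:**
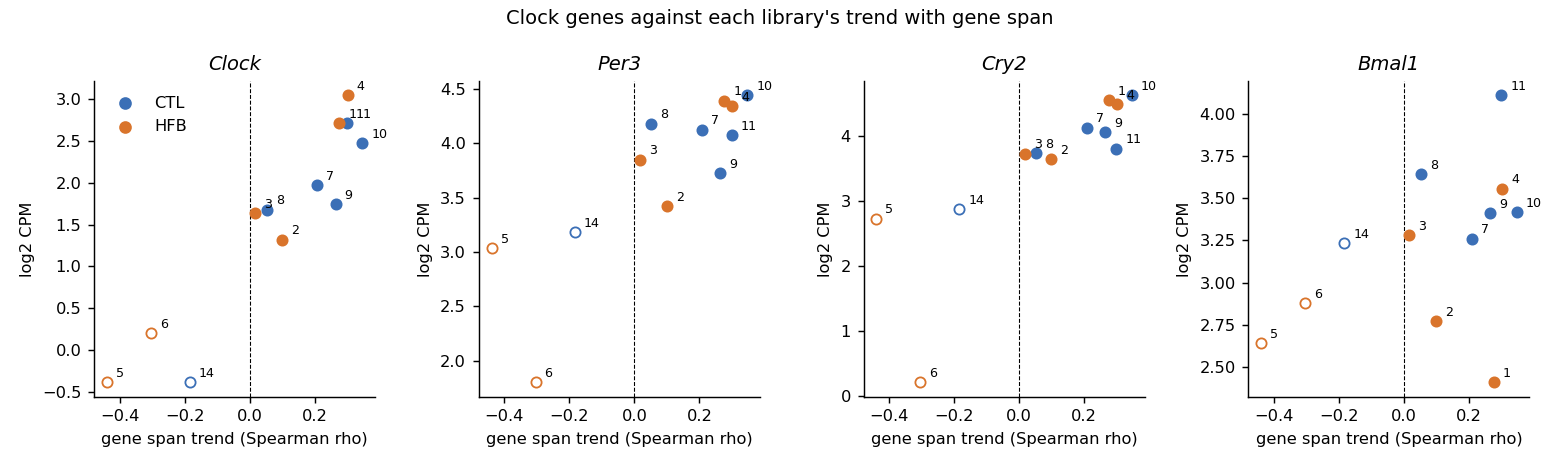
Log2 CPM of *Clock*, *Per3*, *Cry2* and *Bmal1* against the gene span trend of each library (Spearman's rho over 9326 genes, no unit), 1 point per library labelled with its number. The open points are HFB 5 (-0.44), HFB 6 (-0.304) and CTL 14 (-0.184), which lie lowest for *Clock*, *Per3* and *Cry2* but not for *Bmal1*.

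Cell composition was set beside the clock genes through marker lists. No marker gene tested had an unadjusted p under 0.05 between the diets (edgeR), in any of the lists, which were adipocyte (8), epithelial (7), skeletal muscle (8), lymphoid (4), endothelial (4) and red blood cell (5). All 5 red blood cell genes, all 8 skeletal muscle genes and all 4 lymphoid genes tested had positive log2 fold changes, with medians of 0.93, 0.40 and 0.32, and all 7 epithelial genes negative ones, with a median of -0.21. No relation of a clock gene to a marker score passed adjustment over all 12 libraries. The closest was *Per2* with the endothelial score (r = 0.782, permutation p = 0.00326, adjusted p = 0.0513, rho = 0.524, permutation p = 0.0841, adjusted p = 0.389), which was 0.371 without the 2 farthest libraries.

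*Bmal1* and the lymphoid score had r = -0.554 over all 12 libraries (permutation p = 0.0638, adjusted p = 0.237), rho = -0.685 (permutation p = 0.0172, adjusted p = 0.223) and r = -0.752 without HFB 6 and CTL 14, the farthest 2. Over the 9 libraries that did not stand apart, a set chosen after seeing the data, r was -0.927 (exact permutation p = 0.00035, adjusted p = 0.022) and rho was -0.900 (exact permutation p = 0.00203, adjusted p = 0.0639). In these 9, HFB 1 and HFB 2 had the lowest *Bmal1* and the highest summed lymphoid marker levels, 412 and 197 CPM, and the others 22.0 to 78.7 CPM. Without the farthest 2 of the 9 r was -0.697. Other scores also moved with *Bmal1* over the same 9 libraries. To the epithelial score r was 0.764 (exact permutation p = 0.0127, adjusted p = 0.262). To the skeletal muscle score r was 0.617 (exact permutation p = 0.0745, adjusted p = 0.522). Over all 12 libraries these were 0.319 and 0.337. Of the 8 lymphoid markers 7 were in the table, and *Ptprc* was the most abundant. The part of lymphoid content in the *Bmal1* result was not tested beyond the covariates. With the skeletal muscle and lymphoid scores as covariates the log2 fold change of *Bmal1* was -0.61 (unadjusted p = 0.0183, edgeR), and that of *Dbp* was 0.94 (unadjusted p = 0.00123).

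The genes most like *Bmal1* and *Dbp* across the 12 libraries were taken among 7829 other genes with a mean of at least 10 CPM, by Pearson's r of log2 CPM and with no test. For *Bmal1* these were *Myof* (0.889), *Nf2* (0.868), *Serinc5* (0.861), *Steap4* (0.859) and *Snapc3* (0.853). For *Dbp* they were *C5h1orf122* (0.893), *Sumf2* (0.873), *Hrh3* (0.872), *Gatd3a* (0.866) and *Ftl1* (0.847). *Ftl1* has close copies in the genome among which reads could have been split. On the same scale *Nr1d1* was at percentile 99.8 for likeness to *Dbp*, and *Dbp* at percentile 4.85 for likeness to *Bmal1*. With the mean of each diet removed, r of the genes named for *Bmal1* lay between 0.740 (*Steap4*) and 0.813 (*Myof*). For *Dbp* it lay between 0.690 (*Ftl1*) and 0.923 (*C5h1orf122*). A diet difference shared with *Bmal1* or *Dbp* thus entered some of the values of r over all 12 libraries.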

How the data were processed

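Gene counts of 12 whole mammary glands were used, 6 per diet. The authors deposited raw counts per Entrez gene. The submitters' processing notes name bcl2fastq, CASAVA 1.8, TopHat, DESeq and build rn4. The counting program, annotation and use of strand are not given in the sources used here. Symbols came from the RefSeq table of GRCr8 (16351 of 16511 genes). The members and lists were chosen with earlier results of these data known.

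The comparison of diets used R 4.3.3 and the quasi-likelihood test of edgeR 4.0.16 (TMM, filterByExpr, no covariates, two-sided, Benjamini-Hochberg over 9382 genes, threshold 0.05). Alternatives were DESeq2 1.42.0, limma-voom 3.58.1 with quality weights, RLE size factors, leaving the filter out, a filter of 10 counts per library, marker score covariates and leaving out each library. Added after seeing the data were the gene span trend and leaving out HFB 6 and CTL 14, without or with HFB 5, and the relations of *Thra*.

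Marker scores are the mean log2 CPM (prior count 2) of a list. Correlations used two-sided permutation tests (100000 resamples, or all orders for 9 or fewer libraries; Python 3.11.15, numpy 2.4.6, scipy 1.17.1). Named genes were all members, genes of the other lists with a median of at least 10 counts, and the 5 genes most like *Bmal1* and *Dbp*, with *Ciart* and *Zbtb16* added. Every pair of libraries of a diet differed by more than sampling noise (30 pairs, lowest chi-square per degree of freedom 6.69).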

Additional observations from a re-analysis of the deposited data

Results flagged for a closer look

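Of 34 groups of 6 libraries examined for a single library far from the rest, 8 held such a library, where chance gives about 1 in 20. For the clock genes, *Bmal1* in CTL 11 was at 16.8 CPM, with the next CTL library at 11.4 CPM. *Per2* in HFB 5 was at 14.2 CPM, with the next HFB library at 20.0 CPM. HFB 5 was also highest in *Dbp* and CTL 11 lowest.

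The remaining values belong to the libraries as a whole. Total counts were lowest in HFB 1 within its group, at 2320267 (next 2629159), and highest in CTL 7, at 2944680 (next 2570080). The adipocyte score was 9.48 in HFB 6 (next 10.67) and 9.42 in CTL 14 (next 10.76). The lymphoid score was 7.18 in CTL 14 (next 3.01). The red blood cell score was 11.04 in CTL 9 (next 9.23).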

How the results depend on the processing

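Libraries could not be paired, since no number occurs in both diets. No gene passed the adjusted threshold under any of the 9 other settings or when any of the 12 libraries was omitted. The log2 fold change of *Dbp* was positive with an unadjusted p under 0.05 in all of these, from 0.67 to 1.03. That of *Bmal1* was negative in all, from -0.79 to -0.45, but its unadjusted p was above 0.05 with limma-voom (0.0503), with the gene span trend as a covariate (0.0767), without HFB 5, HFB 6 and CTL 14 (0.0784), and without HFB 1 (0.0752), HFB 2 (0.0683), HFB 5 (0.071), CTL 8 (0.0587) or CTL 11 (0.104). The number of clock genes with an unadjusted p under 0.05 was therefore 1 in these settings, 1 to 2 when a library was left out, and 3 with the marker score covariates, where *Nr1d1* was added.

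Over all genes the number with an unadjusted p under 0.05 was 613 with limma-voom, 453 with the marker score covariates, 430 without HFB 6 and CTL 14, 508 without HFB 5, HFB 6 and CTL 14, and 135 to 587 when 1 library was left out. Of the other clock pathway genes 1 reached it with no filter (*Ciart*), with the gene span trend and without HFB 5, HFB 6 and CTL 14 (*Usp2* in both), and 0 to 1 did when a library was left out (*Tef* without HFB 2).

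Small differences changed sign. *Per1* was at 0.28 with limma-voom, 0.0037 with no filter, 0.17 without HFB 6 and CTL 14, 0.34 without HFB 5, HFB 6 and CTL 14, 0.077 with the gene span trend and -0.16 to 0.14 when a library was left out. *Cry1* was at 0.21 with limma-voom, 0.18 without HFB 6 and CTL 14, 0.21 without HFB 5, HFB 6 and CTL 14, and -0.26 to 0.30 when a library was left out. *Cry2* was at 0.052 without HFB 5, HFB 6 and CTL 14 and 0.11 with the gene span trend. The causes were not tested.

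The number of clock gene pairs past the adjusted threshold was 2 with a prior count of 0.5, 0 without HFB 5, HFB 6 and CTL 14, and 1 to 5 when a library was left out, with 1 without HFB 5. The correlation of *Bmal1* and *Nr1d1* was 0.0681 with diet means removed, 0.541 within HFB and -0.372 to 0.0655 when a library was left out, with 0.0655 without CTL 11. That of *Bmal1* and *Dbp* was 0.0847 within HFB and -0.652 to -0.271 when a library was left out. Pearson's r of *Per1* and *Dbp* was negative in all of these settings. It was -0.09 without HFB 5, HFB 6 and CTL 14, where rho was 0.0167.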
